A study of Mus musculus with 2 samples.

Results

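The enzymes described here make prostaglandins and leukotrienes from arachidonic acid, or inactivate them. They are 10 genes taken by symbol from the 32285 genes of the data: the lipoxygenases Alox15 and Alox5, the Alox5 partner Alox5ap, the leukotriene synthases Ltc4s and Lta4h, the cyclooxygenases Ptgs1 and Ptgs2, the terminal synthases Ptges and Ptgis, and the dehydrogenase Hpgd. All 10 had UMIs (unique molecular identifiers, each taken as 1 captured mRNA) in both libraries. Single-cell RNA sequencing was performed on tumors at the abraded peritoneal wall of female C57BL/6 mice, 6 to 8 weeks old, that carried SO cells given i.p. (Trp53-/-, Myc, Hras), a syngeneic ovarian cancer line, the only one used, derived from p53-/- ovaries. From 1 day after the cancer cells, mice received either control IgG (7 mice in the labels) or an Activin A neutralizing antibody (8 mice) for 10 days. Abrasion, cancer cells and daily injections were common to both groups, and both took tissue through enzyme digestion at 37 °C and removal of dead cells. Tumors were pooled within each group, so each group is 1 library, there is no replicate check, and antibody treatment cannot be told apart from any other difference between the 2 libraries. The study gives other numbers of mice and days for its single-cell experiment than the labels do, the labels' mice are those of another of its antibody experiments, and which of them gave these libraries was not settled.

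With 1000 to 8500 genes and 1000 to 100000 UMIs required per cell, and a mitochondrial share of no more than 10%, 8770 control IgG cells and 6386 antibody cells were kept, with medians of 5719 and 4660 UMIs, and 19 cell barcodes occurred in both libraries. Cells were assigned to classes by marker genes that include none of the 10 enzymes, and 13530 cells passed exactly 1 marker gate, 1118 none and 508 more than 1. The monocyte gate left out cells past the macrophage, neutrophil, stromal or cancer-like gate. A cell counted as a macrophage could therefore also reach the monocyte minimum of 4 of 8 markers. Macrophages had UMIs of a median of 4 monocyte markers in both libraries, and the cells that met both rules were not counted. The macrophage class held 1247 control IgG and 323 antibody cells (14.2% and 5.06% of cells), the monocyte class 362 and 242, the neutrophil class 18 and 32, the stromal class 216 and 246 and the cancer-like class 343 and 366. In the macrophage class each of the 8 markers was present in at least 20% of cells in both libraries, with Apoe (94.3%, control IgG) and C1qb (92.3%, antibody) most frequent, and Dcn had a UMI in every cell of the stromal class. The cancer-like class was weaker, with 6 of its 8 markers at that frequency. The neutrophil class differed between libraries in kind as well as in number: its granule genes of precursors (Ngp, Camp, Ltf, Lcn2) summed to 4710 CPM (UMIs of the gene per 1000000 UMIs of the class) with control IgG and 22571 CPM with antibody, and its genes of mature cells (Csf3r, Cxcr2, G0s2, Mmp9) to 3528 and 602 CPM.

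Arachidonic acid, released from membranes by phospholipases, is the substrate of several enzyme families. Cyclooxygenases turn it into an unstable endoperoxide, from which cell type specific synthases make prostaglandin E, prostacyclin or thromboxane. Lipoxygenases oxygenate it directly. Alox5, helped by the membrane protein Alox5ap, makes leukotriene A, from which Lta4h makes the neutrophil attractant leukotriene B and Ltc4s the cysteinyl leukotrienes. In the peritoneum, resident macrophages are a classical source of lipoxygenase products and prostacyclin, and mesothelial cells and fibroblasts also make prostacyclin.

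Levels are given as CPM of a class in a library with an exact Poisson 95% interval in brackets, and ratios as log2 of antibody over control IgG with an exact conditional binomial 95% interval. All intervals cover counting error only. A ratio was computed where both libraries together held at least 20 UMIs, and a 2-fold difference (log2 ratio at or past 1) was the size used for counting genes. In a class, fewer mRNAs per cell and fewer cells carrying them both lower the CPM.

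The enzymes were divided among classes. For 6 of the 10, 1 class held the highest level in both libraries at no less than 2 times the next class, compared with 18.4% of the 16226 genes examined. Alox15 and Ltc4s were highest in macrophages (0.795% of all genes), Alox5 in neutrophils (1.16%), and Ptges, Ptgis and Hpgd in stromal cells (10.1%). The margins over the next class were 11.1-fold (control IgG) and 54.3-fold (antibody) for Alox15, 2.79-fold and 9.29-fold for Ltc4s, and 77.7-fold and 20.4-fold for Ptgis. For Alox5 they were 15.4-fold and 3.12-fold, on 6 and 20 neutrophil UMIs. Ptgs1 fell just short, with stromal levels 2.11 and 1.86 times those of macrophages. Alox5ap was shared by monocytes, neutrophils and macrophages, Lta4h was found in every class, and the class with the highest Ptgs2 level was neutrophils with control IgG and macrophages with antibody.

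**Figure D1:**
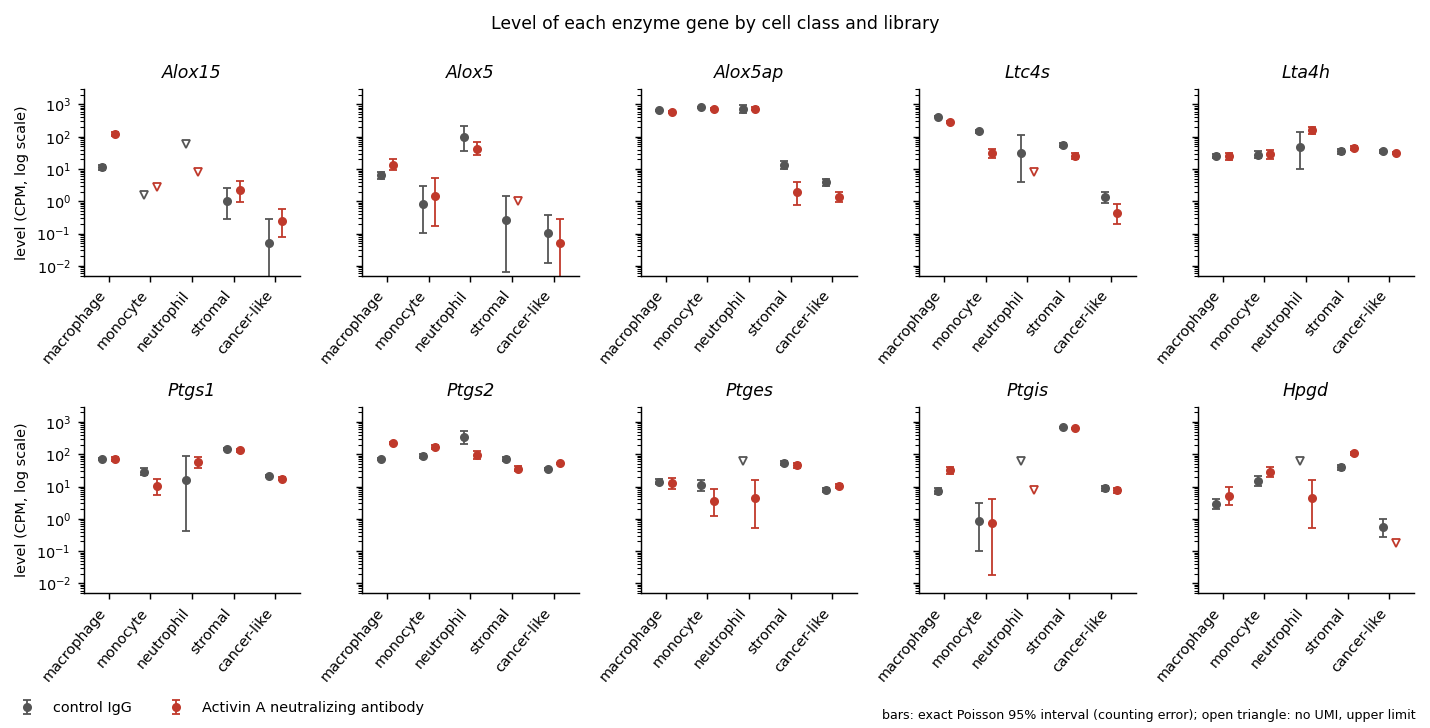
Level of each enzyme gene (CPM, log axis) in the 5 classes, 1 point per library, bars are exact Poisson 95% intervals of the counts. Ptgis stands apart in stromal cells (675 and 641 CPM), and Alox15 in macrophages (11.3 and 121 CPM).

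Because classes differ in cell number and RNA content, the class with the highest level was not always the one holding most of the mRNA. Cancer-like cells, at 34.5 and 51.7 Ptgs2 CPM, held 29.1% of all Ptgs2 UMIs with control IgG and 46.2% with antibody, whereas macrophages held 30.7% and 20.8%. Lta4h UMIs were found mostly in T, NK and B cells (53.8% and 50.4%), the largest class by cell number. Stromal cells held 63.4% and 72.4% of Ptgis UMIs, and macrophages 79.1% and 66.9% of Ltc4s UMIs.

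**Figure D2:**
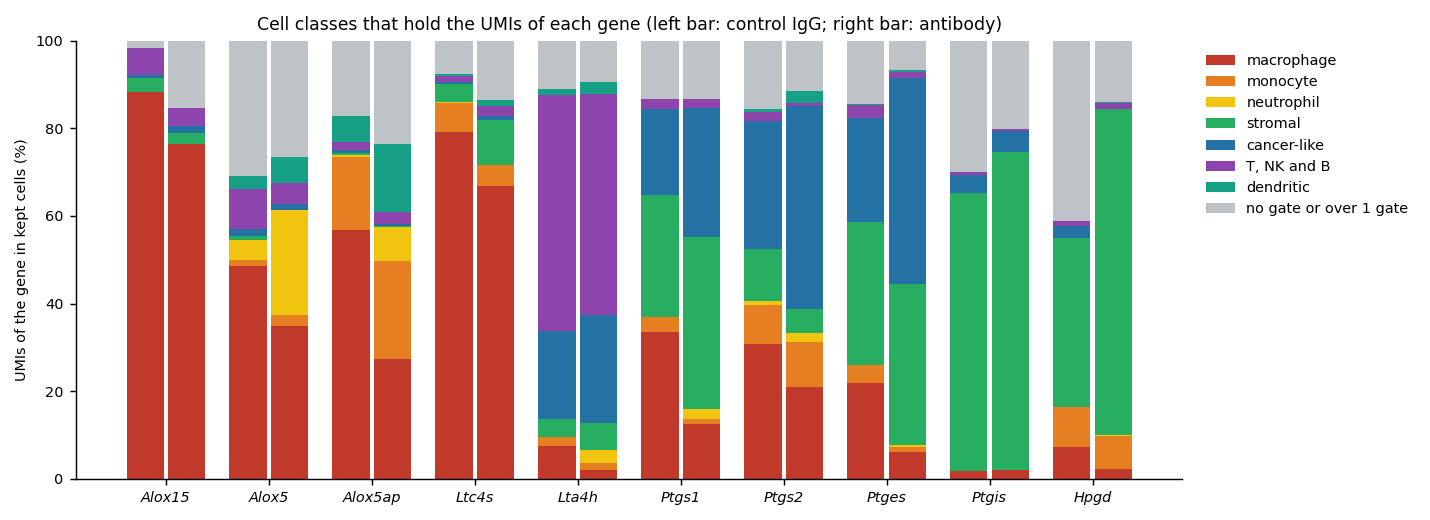
Share of each enzyme gene's UMIs (percent of all UMIs of that gene in kept cells) held by each class, 1 bar per library. Macrophages held 88.3% and 76.5% of Alox15 UMIs, and cancer-like cells held 46.2% of Ptgs2 UMIs in the antibody library.

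In macrophages, 4 of the 10 enzymes were at least 2-fold higher in the antibody library (Alox15, Alox5, Ptgs2 and Ptgis) and 0 were 2-fold lower, while 6.26% of the 11414 genes tested in macrophages differed 2-fold in either direction. The median log2 ratio of the 10 was 0.44, compared with 0.02 for all genes. In monocytes, 0 of 7 tested were 2-fold higher and 3 were lower (Ltc4s, Ptgs1 and Ptges; 5.49% of all genes), with a median of -0.19. In stromal cells 1 of 8 was higher (Hpgd) and 3 were lower (Alox5ap, Ltc4s and Ptgs2; 5.73%), with a median of -0.20. In cancer-like cells 0 of 7 were higher and 2 were lower (Alox5ap and Ltc4s; 5.01%), with a median of -0.19. Among the few neutrophils, 2 of 5 were higher and 2 lower, but 42.6% of all genes tested there differed 2-fold, and nothing is read from these 4.

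**Figure D3:**
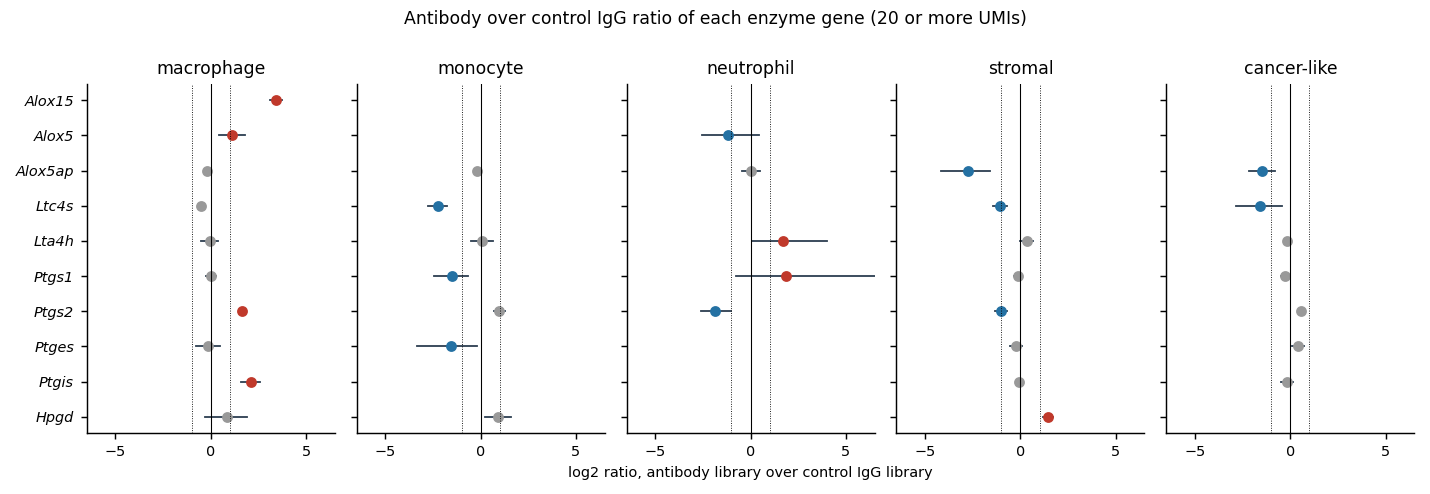
Log2 ratio of antibody over control IgG for each enzyme gene in each class with at least 20 UMIs, bars are exact conditional binomial 95% intervals, dashed lines mark 2-fold. Ptgs2 lies at 1.65 in macrophages and at -1.0 in stromal cells, and neutrophil intervals are wide, that of Ptgs1 running past the axis to 7.20.

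Alox15, a lipoxygenase that oxygenates free and membrane-bound fatty acids, had the largest ratio of the 10 in macrophages. Its level was 11.3 CPM [9.34, 13.6] with control IgG and 121 CPM [107, 137] with antibody, a 10.7-fold difference (log2 ratio 3.42 [3.09, 3.75]). The intervals were far apart. Nearly all of it came from a small set of macrophages with UMIs of at least 3 of 10 genes of large peritoneal macrophages, the resident macrophages of the cavity, among them the transcription factor Gata6 and the receptor Timd4. That set numbered 36 of 1247 macrophages with control IgG (2.89%) and 23 of 323 with antibody (7.12%), and held 99.1% and 100% of the Alox15 UMIs of the class. All other macrophages together had 1 Alox15 UMI with control IgG and 0 with antibody. Monocytes had 0 UMIs in both libraries, where 3 counts would give 1.25 and 2.19 CPM. Neutrophils also had 0 in both, and few UMIs were found in stromal cells (4 and 8) and cancer-like cells (1 and 5).

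Within the set, Alox15 was at 239 CPM [197, 287] with control IgG and 1395 CPM [1229, 1578] with antibody (log2 ratio 2.55 [2.22, 2.88]). With the antibody library's subsets weighted to the control IgG mix, the macrophage ratio was 2.53. Alox15 had a UMI in 14 of the 36 control IgG cells and in 16 of the 23 antibody cells, with medians of 3.5 and 8.5 UMIs in the cells that had it. A single cell held 31 UMIs (27.7%) and 67 UMIs (26.4%), respectively. The size of the difference depended on how narrowly the set was drawn: it was 2.84 with at least 2 of the genes, 1.83 with at least 4 and with at least 5, and 1.19 [0.87, 1.53] in the cluster with the highest level of these genes (16 and 27 cells), where Alox15 was at 554 and 1269 CPM. Other genes also differed within the set. Of the large peritoneal genes, Gata6 was at 40.5 and 132 CPM, Timd4 at 17.1 and 143 CPM and Prg4 at 612 and 2049 CPM. Vsig4 was at 119 and 33.0 CPM and Cxcl13 at 245 and 43.9 CPM. The cells were chosen by UMIs of these genes, so their levels are not independent of the rule. Apoe, a marker of the macrophage gate, was at 5356 and 846 CPM. By number of large peritoneal genes, the set was not made up alike in the 2 libraries. With control IgG, the 20 cells with at least 4 of the genes held all 112 Alox15 UMIs of the 36 cells. With antibody, 20 of the 23 cells had at least 4 and held 249 of the 254 UMIs. Whether the cells are otherwise of the same kind, and the part of this difference in the Alox15 ratio, were not tested.

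**Figure D4:**
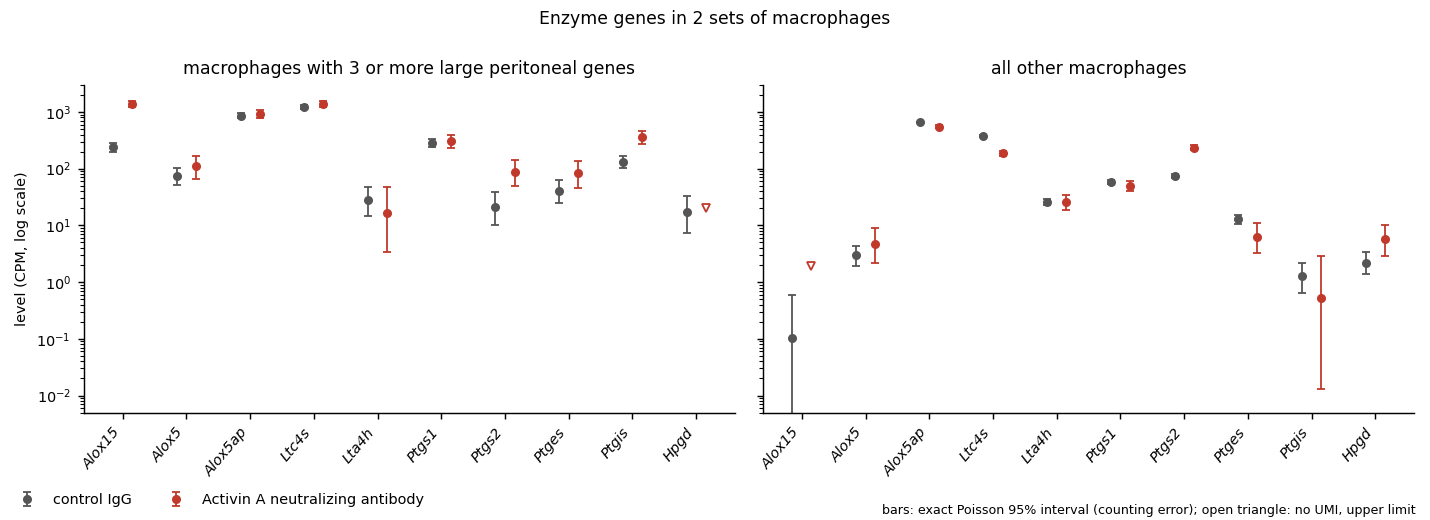
Levels (CPM, log axis) of the enzymes in macrophages with at least 3 large peritoneal macrophage genes and in all other macrophages, 1 point per library, bars are exact Poisson 95% intervals. Alox15 and Ptgis appear almost only in the large peritoneal set, and Ptgs2 is lower there (21.3 and 87.9 CPM) than in all other macrophages (73.4 and 236 CPM).

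Ptgis, which makes prostacyclin, showed the same distribution within the class. It was at 7.42 CPM [5.83, 9.32] with control IgG and 31.5 CPM [24.3, 40] with antibody over all macrophages (log2 ratio 2.08 [1.58, 2.58]), and the large peritoneal set held 83.8% and 98.5% of these UMIs. Inside the set the levels were 132 and 357 CPM (1.43 [0.91, 1.96]), and the ratio ranged from 0.53 to 1.73 over the other ways of drawing the set. At the control IgG mix it was 1.22. Cancer-like cells had 8.69 and 7.62 CPM (-0.19 [-0.51, 0.13]), monocytes 2 and 1 UMIs and neutrophils 0 in both libraries.

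Alox5, which starts leukotriene synthesis, was at 6.32 CPM [4.86, 8.08] with control IgG and 13.8 CPM [9.26, 19.9] with antibody in macrophages (log2 ratio 1.13 [0.44, 1.79]). The large peritoneal set held 55.6% and 69.0% of its macrophage UMIs, with 74.6 and 110 CPM inside the set against 2.95 and 4.70 CPM in all other macrophages. Inside the set the difference was within counting error (0.56 [-0.31, 1.39]), as it was outside (0.67 [-0.60, 1.80]), and at the control IgG mix the ratio was 0.60, under 2-fold. In neutrophils, the textbook source of Alox5, the levels were 97.1 CPM [35.6, 211] on 6 UMIs and 43.2 CPM [26.4, 66.7] on 20 UMIs, with intervals that overlap. Monocytes had 2 and 2 UMIs of Alox5, stromal cells 1 and 0 and cancer-like cells 2 and 1.

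Alox5ap, the membrane protein that presents arachidonic acid to Alox5, was common to the myeloid classes. Macrophages had 664 and 579 CPM, monocytes 820 and 718 CPM and neutrophils 744 and 743 CPM, and the ratios were -0.20, -0.19 and 0.00. In dendritic cells it was at 430 and 534 CPM. Low levels in stromal cells (13.3 CPM [9.91, 17.4] and 1.95 CPM [0.79, 4.02], log2 ratio -2.76) and cancer-like cells (3.85 CPM [3.03, 4.83] and 1.39 CPM [0.93, 2.02], -1.47) went with lower summed levels of the 8 macrophage markers in the same cells, at 403 and 243 CPM in stromal cells and 321 and 166 CPM in cancer-like cells. None of the 8 was at 0 except 1 in stromal cells of the antibody library, and their part in these differences was not tested. With the expected free RNA subtracted, 0 enzymes differed 2-fold in cancer-like cells. An enzyme with no UMIs left in a library after subtraction had no ratio and could not be counted, so this does not show that the differences went away.

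Ltc4s, the synthase of cysteinyl leukotrienes, was at 416 CPM [403, 429] in control IgG macrophages and 291 CPM [269, 315] in antibody macrophages (log2 ratio -0.51 [-0.64, -0.39]). The intervals did not overlap, but the difference was under 2-fold. It was not shared by all macrophages. In the large peritoneal set Ltc4s was at 1241 CPM [1142, 1346] and 1390 CPM [1224, 1572], a difference within counting error (0.16 [-0.05, 0.38]). This depended on how the set was drawn. With at least 2, 4 or 5 of the genes the ratio was 0.20 [0.01, 0.40], 0.30 [0.05, 0.54] and 0.33 [0.07, 0.58]. In the cluster with the highest level of the large peritoneal genes it was -0.18 [-0.42, 0.06]. In all other macrophages it was at 375 CPM [363, 388] and 187 CPM [168, 207], 2-fold lower with antibody (-1.01 [-1.17, -0.85]). The ratio was -0.99 [-1.27, -0.73] in those with Pf4 or Ccl8 UMIs (315 and 158 CPM) and -0.99 [-1.20, -0.80] in those without (415 and 208 CPM). At the control IgG mix of subsets the macrophage ratio was -0.76. The 8 macrophage markers of the class were lower too, summing to 16700 CPM with control IgG and 12112 CPM with antibody. Whether this is related to the Ltc4s difference was not tested. In monocytes, the levels were 149 CPM [134, 165] and 31.4 CPM [22.7, 42.2], 4.75-fold lower with antibody (-2.25 [-2.74, -1.79]), and 137 and 22.7 CPM without the cell of each library that had most Ltc4s UMIs. The summed macrophage markers were at 2663 and 1733 CPM in these monocytes, with none of the 8 at 0, and their part in the result was not tested. Ltc4s was also lower in stromal cells (55.4 CPM [48.2, 63.2] and 26.2 CPM [21.2, 32.1], -1.08 [-1.44, -0.72]) and cancer-like cells (1.34 and 0.448 CPM, -1.58 [-2.85, -0.44], 26 and 9 UMIs), and neutrophils had 2 and 0 UMIs. The cancer-like levels were under those of T, NK and B cells, at 2.01 and 0.892 CPM (-1.17 [-1.95, -0.45]). The lower macrophage markers given above for stromal and cancer-like cells stand beside these Ltc4s values too, and their part was not tested.

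When every cell was thinned to 2000 UMIs, Ltc4s was detected in 32.8% [30.2, 35.5] of control IgG macrophages and 24.1% [19.5, 29.2] of antibody macrophages (exact binomial intervals; 46.8% and 33.1% before thinning, at medians of 7520 and 6271 UMIs). In monocytes these shares were 12.3% [9.07, 16.1] and 4.24% [2.05, 7.65] (22.1% and 7.02% before thinning, at 6271 and 5338.5 UMIs). In T, NK and B cells, which should lack the gene, they were 0.506% and 0.215% (1.15% and 0.484% before thinning, at 4759 and 4189 UMIs). Alox5ap and Ltc4s were found together in 24.6% of thinned control IgG macrophages and 16.8% of antibody macrophages. Of the macrophages with an Alox5 UMI before thinning, 34 of 44 with control IgG and 14 of 19 with antibody also had Alox5ap and Ltc4s UMIs. Of all 1247 and 323 macrophages before thinning, 1146 and 277 had an Alox5ap UMI and 583 and 107 an Ltc4s UMI. Of the cells with Alox5, 17 and 11 were in the large peritoneal set, where 88.9% and 95.7% of cells had an Ltc4s UMI. Whether the 3 genes occur together beyond these shares was not tested.

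Lta4h, which makes leukotriene B, was at 25.7 and 24.8 CPM in macrophages (log2 ratio -0.05 [-0.51, 0.38]), 27.5 and 29.2 CPM in monocytes (0.08 [-0.52, 0.67]), 35.2 and 44.3 CPM in stromal cells (0.33 [-0.01, 0.67]) and 35.1 and 31.4 CPM in cancer-like cells (-0.16 [-0.32, -0.00]). These 4 classes had overlapping intervals in the 2 libraries. T, NK and B cells were higher, at 52.2 and 54.8 CPM. In dendritic cells the intervals did not overlap, at 30.2 CPM [22.3, 39.9] and 55.0 CPM [43.0, 69.4] (0.87 [0.32, 1.42]). Neutrophils had 48.6 CPM [10.0, 142] on 3 UMIs and 158 CPM [124, 198] on 73 UMIs, beside the different mix of precursor and mature genes in the 2 libraries.

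The cyclooxygenases catalyse the same step from different promoters, with Ptgs1 known as the constitutive and Ptgs2 as the inducible gene. Their promoter sequences are shown because the levels of the 2 genes went apart in macrophages. Each sequence is the 250 bases before the gene's start in RefSeq (GRCm38.p6), 5′ to 3′, with matches to the GC box GGGCGG in capitals.
Ptgs1, chr2:36230176-36230425, plus strand: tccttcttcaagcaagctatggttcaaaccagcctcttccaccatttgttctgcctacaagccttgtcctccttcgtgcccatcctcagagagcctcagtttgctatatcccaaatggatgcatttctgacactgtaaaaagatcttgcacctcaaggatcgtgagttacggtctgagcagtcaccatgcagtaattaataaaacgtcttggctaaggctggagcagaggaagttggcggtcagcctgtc
Ptgs2, chr1:150099781-150100030, plus strand: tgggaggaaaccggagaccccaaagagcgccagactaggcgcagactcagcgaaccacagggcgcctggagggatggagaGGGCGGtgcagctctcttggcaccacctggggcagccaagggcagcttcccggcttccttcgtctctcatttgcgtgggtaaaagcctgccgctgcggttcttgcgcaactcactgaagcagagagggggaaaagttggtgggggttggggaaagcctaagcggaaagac
The Ptgs2 window has 61.6% G and C and the Ptgs1 window 48%, around a median of 52.4% over 32851 promoters. Both strands were searched for GGGCGG (present in 32.7% of promoters), TATAAA (12.4%), TGACG (17.8%) and CACGTG (6.02%), and matches of different motifs could share bases. The Ptgs2 window held 1 GGGCGG and the Ptgs1 window none of the 4. Of the 7 enzymes with a window in the table, 4 held GGGCGG (Alox5, Ptgs2, Ptges and Hpgd). A match is a description of the letters only. Bases further upstream or past the annotated start were not searched, so a motif absent here may lie outside the window.

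Ptgs1 in macrophages was at 69.7 CPM [64.6, 75.1] with control IgG and 71.5 CPM [60.6, 84.0] with antibody (log2 ratio 0.04 [-0.23, 0.29]). In the large peritoneal set it was at 288 and 302 CPM, 4.88 and 6.09 times the level of all other macrophages. Stromal cells had 147 CPM [135, 160] and 133 CPM [121, 145] (-0.15 [-0.33, 0.03]), and cancer-like cells 21.1 and 17.6 CPM (-0.27 [-0.47, -0.06]). Monocytes differed, with 28.8 CPM [22.4, 36.4] and 10.2 CPM [5.58, 17.1] (-1.5 [-2.44, -0.65], 69 and 14 UMIs). As with Ltc4s, this stood beside lower macrophage markers in the antibody monocytes.

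Ptgs2 in macrophages was at 70.9 CPM [65.8, 76.3] with control IgG and 223 CPM [203, 244] with antibody, 3.15-fold higher (log2 ratio 1.65 [1.48, 1.82]). Every macrophage subset had a ratio above 1: 2.04 [0.81, 3.35] in the large peritoneal set (10 and 16 UMIs), 1.38 [1.07, 1.68] in those with Pf4 or Ccl8 and 1.86 [1.65, 2.07] in those without. The large peritoneal value depended on how the set was drawn. It was 1.00 [0.20, 1.77] with at least 2 of the genes and 2.35 [0.84, 4.15] with at least 4. With at least 5 the levels were 17.6 and 20.4 CPM on 4 and 3 UMIs. The cluster with the highest level of these genes had 0 and 10 Ptgs2 UMIs. Over all macrophages the ratio was 1.71 at the control IgG mix of subsets, and the levels were 69.1 and 211 CPM without the cell of each library that had most Ptgs2 UMIs. After thinning to 2000 UMIs, 10.9% [9.19, 12.8] and 23.5% [18.9, 28.6] of macrophages had a Ptgs2 UMI (23.4% and 36.5% before thinning), beside 0.206% and 0.143% of T, NK and B cells (0.550% and 0.392% before thinning). In monocytes it was at 86.4 CPM [75.0, 99.0] and 170 CPM [149, 193], just inside 2-fold (0.98 [0.70, 1.25]). Dendritic cells had 11.1 and 45.7 CPM (2.05 [1.26, 2.90]) and cancer-like cells 34.5 CPM [32.0, 37.2] and 51.7 CPM [48.6, 54.9] (0.58 [0.44, 0.72]).

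Stromal cells went the other way. Their Ptgs2 level was 70.4 CPM [62.4, 79.2] with control IgG and 35.1 CPM [29.3, 41.8] with antibody, just past 2-fold lower (-1.0 [-1.32, -0.69]). The lower level was found in mesothelial-like cells (93.8 and 23.1 CPM, -2.02 [-2.72, -1.38], 37 and 31 cells) and in cells with Acta2 and Tagln (110 and 70.9 CPM, -0.63 [-1.29, -0.03], 43 and 15 cells). Fibroblasts with Pi16 or Car3 had 10.3 and 29.5 CPM (1.52 [0.40, 2.78], 9 and 29 UMIs), and other fibroblasts 39.7 and 39.5 CPM. The Acta2 and Tagln cells were 19.9% of the class with control IgG and 6.10% with antibody, the summed myofibroblast markers of the class were at 2255 and 514 CPM, and at the control IgG mix of subsets the stromal Ptgs2 ratio was -0.71, under 2-fold.

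Ptgs2 is an early response gene, and other such genes were read beside it. In macrophages, 10 immediate-early genes, a list chosen after the values of the enzymes were seen, had a median log2 ratio of 1.0, with 5 of 10 at least 2-fold higher and 0 lower. The share of all genes past 2-fold in macrophages, in either direction, was 6.26%. Fos was at 612 and 1281 CPM and Egr1 at 164 and 433 CPM. Of 15 inflammatory genes, 7 were 2-fold higher and 0 lower (median 0.85), with the chemokine Cxcl2 at 705 and 1486 CPM and the cytokine Il6 at 6.32 and 28.6 CPM. Large peritoneal macrophage genes were 2-fold higher for 8 of 10 (median 1.39) and alternative activation genes for 2 of 12 (median 0.28). In monocytes the medians of the immediate-early and inflammatory lists were 0.67 and 0.26, in stromal cells 0.63 and -0.55 and in cancer-like cells 0.07 and -0.35. Tissue digestion at 37 °C is known to induce immediate-early genes, and its part in the Ptgs2 levels was not tested.

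Within each library, macrophages with a Ptgs2 UMI were compared with those without, over cells of at least 2000 UMIs. Inflammatory genes were higher in the Ptgs2 cells for 14 of 14 genes with enough UMIs in the control IgG library (289 and 933 cells, median log2 difference 0.54) and for 12 of 15 in the antibody library (115 and 200 cells, 0.66). Cxcl2 was at 1099 CPM in control IgG macrophages with Ptgs2 and 564 CPM in those without, and at 2134 and 1082 CPM in the antibody library. Il1b was at 573 and 340 CPM, and at 1138 and 466 CPM. Immediate-early genes were higher for 10 of 10 and 8 of 10 genes (medians 0.31 and 0.46), and large peritoneal macrophage genes for 2 of 9 and 0 of 8 (medians -0.99 and -1.32). Cells with Ptgs2 were somewhat deeper, with medians of 8477 against 7193 UMIs and 6855 against 6061 UMIs. In macrophages with Ptgs1, large peritoneal macrophage genes were higher than in those without for 9 of 9 and 8 of 8 (medians 2.41 and 3.52). All these counts are given without the share of all genes higher in the same split, and cells were not thinned for them. They describe the cells only. Both cyclooxygenases had UMIs in 97 of the 1247 control IgG macrophages (370 with Ptgs1, 292 with Ptgs2) and in 22 of the 323 antibody macrophages (75 and 118).

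Ptges, the inducible synthase of prostaglandin E that is usually paired with Ptgs2, did not differ 2-fold in macrophages and stromal cells, where Ptgs2 did. In macrophages it was at 14.0 CPM [11.8, 16.6] and 12.9 CPM [8.49, 18.7] (log2 ratio -0.12 [-0.78, 0.48]), with 40.5 and 82.4 CPM in the large peritoneal set and 12.7 and 6.27 CPM in all other macrophages (-1.02 [-2.01, -0.17], 121 and 12 UMIs). Monocytes had 10.9 and 3.65 CPM on 26 and 5 UMIs (-1.57 [-3.31, -0.17]). In stromal cells, where it was highest, the levels were 53.3 CPM [46.3, 61.1] and 44.9 CPM [38.2, 52.4] (-0.25 [-0.55, 0.06]). This held opposite parts: mesothelial-like cells had 23.9 and 45.2 CPM (0.92 [0.20, 1.67]), and fibroblasts with Pi16 or Car3 had 96.2 and 59.1 CPM (-0.70 [-1.21, -0.20]). Cancer-like cells had 7.76 CPM [6.57, 9.10] and 10.3 CPM [8.90, 11.8] (0.40 [0.09, 0.72]), and neutrophils 0 and 2 UMIs.

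Ptgis in stromal cells was at 675 CPM [649, 701] with control IgG and 641 CPM [615, 668] with antibody (-0.07 [-0.16, 0.01]), a difference within counting error whose interval stayed far inside 2-fold. The subsets were ordered alike in both libraries. Mesothelial-like cells had 1336 and 1246 CPM, cells with Acta2 and Tagln 571 and 539 CPM, other fibroblasts 449 and 458 CPM, and fibroblasts with Pi16 or Car3 223 and 225 CPM. Stromal Ptgs1 followed a similar order, from 253 and 235 CPM in mesothelial-like cells to 45.8 and 28.5 CPM in fibroblasts with Pi16 or Car3. Cells with Acta2 and Tagln had 157 and 102 CPM of Ptgs1 and other fibroblasts 100 and 135 CPM, so the middle subsets changed places.

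**Figure D5:**
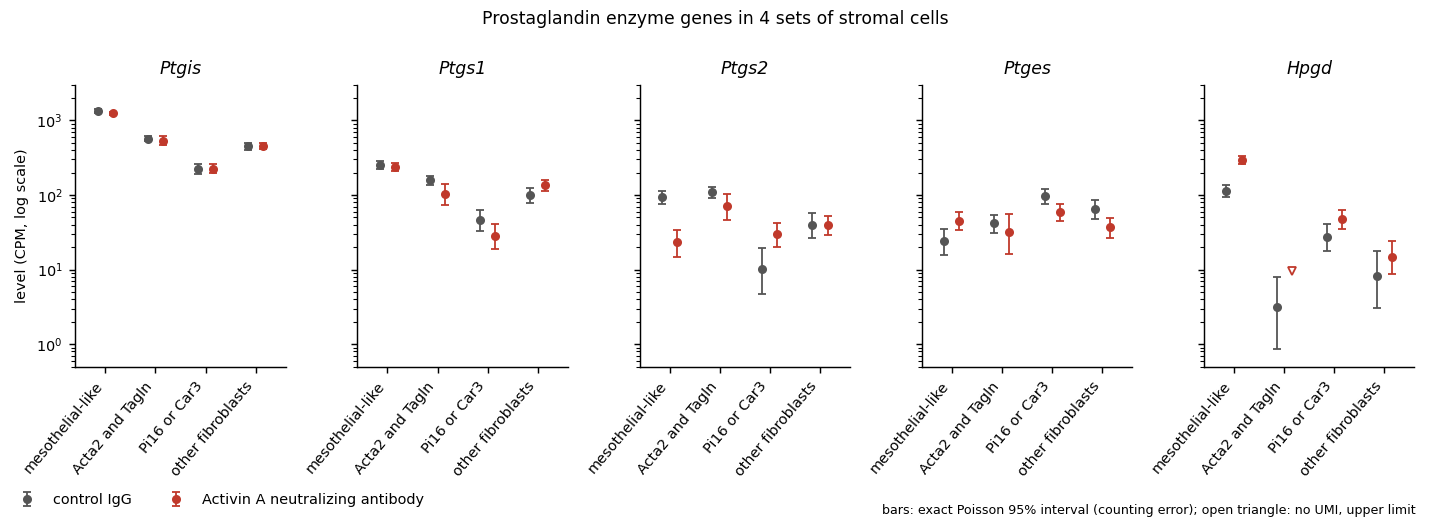
Levels (CPM, log axis) of Ptgis, Ptgs1, Ptgs2, Ptges and Hpgd in 4 stromal subsets, 1 point per library, bars are exact Poisson 95% intervals. Ptgis keeps its levels and order across subsets, while in mesothelial-like cells Ptgs2 is lower (93.8 and 23.1 CPM) and Hpgd higher (115 and 296 CPM) with antibody. A single antibody cell held 123 of the 321 Hpgd UMIs behind the 296 CPM.

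Hpgd, which oxidises prostaglandins to inactive products, was at 39.3 CPM [33.3, 46.0] in control IgG stromal cells and 107 CPM [96.9, 119] in antibody stromal cells (log2 ratio 1.45 [1.18, 1.73]). Most of it was in mesothelial-like cells (115 and 296 CPM, 1.37 [1.06, 1.68]), with 27.5 and 47.9 CPM in fibroblasts with Pi16 or Car3 (0.80 [0.06, 1.57]). This difference rested on few cells. A single antibody cell held 123 of 385 UMIs (31.9%), and without the top cell of each library the levels were 34.6 and 74.1 CPM. That antibody cell was mesothelial-like, as no other stromal subset held so many UMIs, and gave 123 of the 321 UMIs of the 31 mesothelial-like cells. The mesothelial-like ratio was not computed without it. Cells that passed the stromal gate and another one had 93.2 CPM with control IgG (50 cells) and 43.8 CPM with antibody (30 cells), the opposite order, and with those cells assigned to the class of most markers the stromal ratio was 0.82, under 2-fold. Macrophages had 2.91 and 5.25 CPM (0.85 [-0.30, 1.90]), and all macrophages outside the large peritoneal set 2.21 and 5.75 CPM (1.38 [0.18, 2.50], 21 and 11 UMIs). In monocytes Hpgd was at 15 CPM [10.5, 20.8] and 28.4 CPM [20.2, 38.9] (0.92 [0.23, 1.62]). The monocytes with Hpgd had lower inflammatory genes than those without, with only 2 of 12 genes higher with control IgG (21 and 337 cells, median -1.15) and 3 of 11 with antibody (19 and 217 cells, -0.86). The share of all genes higher in this split is not given, and the cells were not thinned for it. Cancer-like cells had 11 and 0 Hpgd UMIs and neutrophils 0 and 2.

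In neutrophils, Ptgs2 was at 340 CPM [210, 520] with control IgG and 95 CPM [69.0, 128] with antibody (log2 ratio -1.84 [-2.62, -1.01], 21 and 44 UMIs), and Ptgs1 at 16.2 CPM [0.41, 90.2] on 1 UMI and 58.3 CPM [38.4, 84.8] on 27 UMIs. These values stand beside the shift from mature to precursor genes given above, and the 2 were not separated.

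Of 57 other eicosanoid genes in the data, 36 had enough UMIs in macrophages, of which 2 were 2-fold higher with antibody and 0 lower (median log2 ratio -0.15). Of all genes tested in macrophages, 6.26% differed 2-fold in either direction. In monocytes 1 of 30 was higher and 1 lower (5.49% of all genes), in stromal cells 1 of 35 and 3 (5.73%), in cancer-like cells 0 of 33 and 1 (5.01%), and in neutrophils 4 of 12 and 4 (42.6%). By function, macrophages had 2 of 22 enzymes of arachidonic acid release and synthesis 2-fold higher, and 0 of 5 genes of transport and inactivation and 0 of 9 receptors past 2-fold. The most abundant partners in macrophages were nearer to even. The thromboxane synthase Tbxas1 was at 320 and 283 CPM (-0.18 [-0.31, -0.05]), the lipid hydrolase Pla2g7 at 324 and 263 CPM (-0.30), the leukotriene B hydroxylase Cyp4f18 at 198 and 142 CPM (-0.48), the leukotriene B receptor Ltb4r1 at 159 and 113 CPM (-0.50) and the lipid peroxidase Gpx4 at 424 and 440 CPM (0.05). The 2 past 2-fold were scarce: Ephx1, an epoxide hydrolase, at 4.21 and 9.54 CPM (1.18 [0.33, 1.98]), and Mgst2, at 1.71 and 3.82 CPM, with an interval that includes 0 (1.16 [-0.26, 2.45]). In monocytes Tbxas1 was at 280 and 182 CPM (-0.63 [-0.84, -0.42]), Cyp4f18 at 167 and 107 CPM (-0.64) and Pla2g7 at 252 and 178 CPM (-0.50), all under 2-fold lower. Mgst1, a microsomal transferase (187 and 162 CPM, -0.21), Gpx4 (346 and 318 CPM, -0.12), the exporter Abcc4 (101 and 107 CPM, 0.08) and Ltb4r1 (203 and 214 CPM, 0.08) were within counting error. Past 2-fold were the prostaglandin E synthase Ptges2, at 4.59 and 10.9 CPM (1.25 [0.03, 2.52]), and the formyl peptide receptor Fpr1, at 12.1 and 0.73 CPM (-4.05 [-9.40, -1.46]).

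In stromal cells the prostaglandin E receptors went apart, with Ptger3 at 172 and 120 CPM (-0.51 [-0.69, -0.33]) and Ptger4 at 9.95 and 23.1 CPM (1.22 [0.65, 1.81]). The 3 genes that were 2-fold lower were Tbxas1 (6.12 and 0.279 CPM, -4.46 [-9.82, -1.84]), Mgst2 (4.85 and 1.39 CPM, -1.80 [-3.57, -0.33]) and Ltb4r1 (5.61 and 2.51 CPM, -1.16 [-2.46, 0.01]). Tbxas1 and Ltb4r1 were at over 100 CPM in macrophages, and the summed macrophage markers given above were also lower in these stromal cells, but their part was not tested. The abundant genes were near even, with Acsl4, which activates arachidonic acid, at 166 and 154 CPM (-0.11), Ptges3 at 114 and 111 CPM (-0.04), Dpep1, a peptidase that trims cysteinyl leukotrienes, at 102 and 117 CPM (0.20), Mgst1 at 443 and 431 CPM (-0.04) and Gpx4 at 470 and 455 CPM (-0.05). In cancer-like cells Tbxas1 was the 1 gene past 2-fold, at 1.80 and 0.398 CPM (-2.17 [-3.49, -1.04]). Mgst1 was at 235 and 172 CPM (-0.44 [-0.51, -0.38]), Acsl4 at 213 and 247 CPM (0.21), Gpx4 at 671 and 631 CPM (-0.09) and Ptges3 at 226 and 222 CPM (-0.02).

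In neutrophils, where 42.6% of all genes were past 2-fold, the 4 lower genes were Cyp4f18 (405 and 97.2 CPM), Pla2g7 (210 and 66.9 CPM), Fpr1 (243 and 28.1 CPM) and Fpr2 (227 and 69.1 CPM). The 4 higher were Mgst1 (97.1 and 425 CPM), Gpx4 (227 and 456 CPM), Tbxas1 (32.4 and 66.9 CPM) and Mgst2 (0 and 196 CPM). The Tbxas1 ratio rested on 33 UMIs over both libraries, with an interval that includes 0 (1.05 [-0.93, 4.16]). Ltb4r1 was at 162 and 194 CPM.

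Over the 10 class and library points, the genes with levels most like each enzyme were found by Pearson r of log2(CPM + 1). These points share libraries and depth, and r is a description. Alox15 was nearest to Gm15943 (r = 0.95), Cd5l (0.95) and St18 (0.95), of which Cd5l belongs to the large peritoneal list that drew the set above. Alox5ap was nearest to the neutrophil oxidase subunit Ncf4 (1.00) and the hexokinase Hk3 (1.00), Ltc4s to Sh3glb1 (0.98) and Pltp (0.98), and Ptgis to Wnt2 (0.99). Ptgs2 had weaker neighbours, in order Kbtbd7 (0.94), Kansl1l (0.94), Agap2 (0.93) and the early response gene Ier5 (0.93), and Hpgd was nearest to Irf4 (0.97).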

How the data were processed

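The authors deposited unfiltered counts of UMIs per gene and barcode for 2 libraries, each holding the pooled tissue of a group (98174850 UMIs with control IgG and 74117462 with antibody). The submitters' processing notes name Cell Ranger 7.0.1 and mm10, while the file headers give another Cell Ranger version. Labels and methods also differ on the 10x chemistry. Groups were taken from the labels.

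Cells were filtered at the limits stated above and gated by marker genes, with 3 to 5 markers needed in most classes, and cells past more than 1 gate (508) were left out. By the rule given above, cells past the macrophage gate could not pass the monocyte gate. Doublets were kept. Members' UMIs were summed per class and library as CPM. Every member is given in each of the 5 classes. Other eicosanoid genes are named if at least 100 CPM in both libraries, or past 2-fold with an interval that leaves out 0, and like genes are the 5 with the highest r, of which the first are printed. Members and lists were chosen with earlier results of these data known. No test between groups was made. Ratios were checked on simulated counts. Barcodes under 100 UMIs (6.39% and 6.23% of UMIs) gave the free RNA profile.

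Alternatives were: 1 more marker per gate, cells past 2 gates assigned, Leiden clusters (2000 variable genes less the 7 members among them, 30 components, 15 neighbours, resolution 1.0, 27 clusters), free RNA subtracted, doublet scores (top 5% removed), at least 2000 UMIs per cell, at most 5% mitochondrial UMIs, ratios centred on the median gene, thinning to 2000 or 1000 UMIs, mean per cell, UMI minimums, top cells left out, and, added after values were seen, other macrophage sets and the control IgG mix of subsets. Positions are from GENCODE M21 (GRCm38). Tools were Python 3.11.15, numpy 2.4.6, scipy 1.17.1, scanpy 1.11.5 and leidenalg 0.10.2.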

Additional observations from a re-analysis of the deposited data

Results flagged for a closer look

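The Ptgs2 ratio differed in direction between classes, with a log2 ratio of antibody over control IgG of 1.65 in macrophages and -1.0 in stromal cells. The thinned shares of stromal cells with Ptgs2, given above, had overlapping intervals. The Ltc4s ratio differed in direction between stromal subsets, with 1.61 [0.64, 2.68] in mesothelial-like cells (11.5 and 35.1 CPM, 12 and 38 UMIs) and -2.33 [-3.24, -1.51] in fibroblasts with Pi16 or Car3 (67 and 15 UMIs). Few cells held these UMIs: 8 of 37 and 7 of 31 mesothelial-like cells, and 18 of 74 and 7 of 105 of these fibroblasts. With 1 library per group neither difference was tested.

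Outside the gated classes, Alox5 was at 97.6 CPM [48.7, 175] in 32 cells that passed no gate, above the 26.6 CPM that 3 counts would give. They were the cells past no gate of the cluster with the highest Il1rl1 level. Summed over these cells, Il1rl1, Gata3 and Kit were at 1020, 710 and 364 CPM. All 11 UMIs were in 5 of the 17 control IgG cells (194 CPM [96.8, 347]), and 0 in the 15 antibody cells, which allows up to 65.9 CPM. These cells had 0 UMIs of Ltc4s, Hpgds and S100a9.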

How the results depend on the processing

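Under the alternative settings, 376 of 421 recomputed ratios of the 37 lay inside the interval given above and 42 moved outside it. The other 3 belonged to ratios past 2-fold and had the other sign, on counts too few to show a direction. Changes of sign in ratios under 2-fold were not counted apart. Ptgs1 in macrophages, for example, was at 0.04, and at -0.19 at the control IgG mix of subsets. Ptgs1 in neutrophils was -0.22 with at least 2000 UMIs per cell (0 and 25 UMIs) and -0.13 without the top cell (0 and 20 UMIs), lower bounds with the control IgG count set to 3. Alox5ap in cancer-like cells (75 and 28 UMIs) was 1.92 after thinning to 2000 UMIs, on 1 and 4 cells, while thinning to 1000 UMIs left 1 and 0. The number of enzymes past 2-fold in neutrophils (4) was 2 with the mean per cell, without the top cell and at 50 UMIs or more, 1 after thinning and 7 with no minimum. In stromal cells (4) it was 2 with 1 more marker, with Leiden clusters and with the mean per cell, and 1 with cells past 2 gates assigned. The stromal Hpgd ratio was under 2-fold in each of these. In cancer-like cells (2) it was 1 with Leiden clusters, the mean per cell and at 50 UMIs or more, 0 with free RNA subtracted and 5 with no minimum. It was also 1 after thinning, but that 1 was the Alox5ap ratio of 1.92 given above, with the other sign. After free RNA subtraction, an enzyme with no UMIs left in a library had no ratio and could not be counted. The causes were not tested. Leiden clusters gave no monocyte class and so no value for it. No paired analysis was possible because there is a single library per group, and for that reason no library could be left out. Depth limited neutrophils most, with 61789 UMIs in 18 control IgG cells.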
